A study of Mus musculus with 12 samples.

Results

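Fgd2, Syndig1l, Cyp4f18, Vat1l, Sh2d5, P2rx3, Tmprss3, Eng, Crhbp and Cav2 are 10 genes that mouse B cell precursors transcribe, taken from a table of 47069 genes. They were picked from the measured FPKM (fragments per kilobase of gene, scaled to sequencing depth) for large falls after stabilisation of β-catenin, after inhibition of the kinase GSK3, or after both. No numerical limit came with that choice, so their levels in these 2 comparisons are given as a description. All 10 passed the filter on low values in every comparison (1 FPKM or more in 3 or more of the 6 libraries compared).

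The data are bulk RNA sequencing of 12 libraries in 4 groups of 3, from B cell precursors grown out of hematopoietic stem cell cultures in Iscove's medium with IL7. The β-catenin libraries (numbers 244, 255 and 262, genotype bCat-lox(Ex3)) carry Mb1-Cre and a Catnb allele with exon 3 between lox sites, and were sorted by B220 and lysed at once. Their sorted controls (242, 249 and 251) were handled alike, and the labels do not say whether they carry Mb1-Cre. The inhibitor libraries (242, 249 and 251) are unsorted wildtype cultures kept overnight in 40 nM of LY2090314, a GSK3 inhibitor, and the untreated libraries of the same numbers were kept overnight without it. Mb1-Cre is driven by the gene of the B cell receptor chain CD79A, so recombination is directed to the B lineage. The labels do not state that the 3 libraries of each group were made from different mice, so the spread behind each p-value may be technical in part or whole. All libraries numbered 242 held Xist, a transcript of female cells (205 to 295 FPKM), and no Y-linked Ddx3y (0 FPKM). Those numbered 249 and 251 held Ddx3y (13.6 to 37.7 FPKM) and at most 0.176 FPKM of Xist. Number 242 thus came from other mice than 249 and 251, which these genes do not tell apart.

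GSK3 phosphorylates β-catenin and so marks it for destruction. Loss of the exon that carries those phosphorylation sites, or loss of the kinase activity, lets β-catenin accumulate and act with TCF and LEF factors in the nucleus. GSK3 has many other substrates, so the inhibitor and the allele are not the same manipulation. The 10 genes have no common pathway. Eng (endoglin), P2rx3 and Cav2 encode membrane receptors and a membrane coat protein. Crhbp and Tmprss3 encode a secreted binding protein and a membrane-bound protease. Fgd2 and Sh2d5 encode signalling proteins inside the cell, Cyp4f18 and Vat1l an oxidising enzyme and a relative of oxidoreductases, and Syndig1l a small membrane protein related to a synaptic one.

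Some libraries stood apart, and the results are given with and without them. The 11 markers of B cell precursors (such as Cd79b, Ebf1 and Pax5) summed to 106, 2329 and 1739 FPKM in β-catenin libraries 244, 255 and 262, against 5750.0 to 6268 FPKM in the sorted controls. Library 244 was the lowest of the 12 libraries in these markers, and it alone had both Xist (169 FPKM) and the Y-linked Ddx3y (19.5 FPKM). The summed NK and innate lymphoid markers ran from 777 to 3769 FPKM in the β-catenin libraries against 20.9 to 46.2 FPKM in sorted controls, with 11 of 12 called higher. T cell markers ran from 361 to 829 FPKM in β-catenin libraries against 45.7 to 58.1 FPKM in sorted controls, with 7 of 10 called higher. Those of stem and progenitor cells ran from 454 to 972 FPKM in β-catenin libraries against 125 to 207 FPKM in sorted controls (2 of 9 called higher). Over all genes tested in this comparison, 18.6% were called higher. Those of neutrophils ran from 26.2 to 597 FPKM in β-catenin libraries against 2.45 to 11.3 FPKM in sorted controls, and those of mast cells and basophils from 24.0 to 185 FPKM in β-catenin libraries against 1.15 to 17.1 FPKM in sorted controls. Monocyte and macrophage markers ran from 116 to 338 FPKM in β-catenin libraries against 17.5 to 30.8 FPKM in sorted controls, and erythroid and megakaryocyte markers from 4.18 to 23.3 FPKM in β-catenin libraries against 2.02 to 5.40 FPKM in sorted controls. In the unsorted libraries numbered 249, neutrophil markers summed to 7082 FPKM with LY2090314 and 7155 FPKM without it, against at most 446 FPKM in the other unsorted libraries. The part of these other cells in the results was not tested. In bulk samples, fewer cells of a type and less RNA per cell cannot be told apart.

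The promoters of 4 of the 10 genes are shown for the motifs they hold. They run from 250 bases before to 50 bases after the RefSeq start on GRCm38.p6, and 7 of the 10 genes had at least 1 in the RefSeq table (8 promoters in all, since Tmprss3 has 2 starts). Capitals mark matches, on either strand, to GAGGAAG (a core bound by the ETS factor PU.1), to CAGCTG (an E-box of E proteins) or to CCCNNGGG (the core bound by EBF1); no printed match overlaps another.
Fgd2, chr17:29360664-29360963, plus strand: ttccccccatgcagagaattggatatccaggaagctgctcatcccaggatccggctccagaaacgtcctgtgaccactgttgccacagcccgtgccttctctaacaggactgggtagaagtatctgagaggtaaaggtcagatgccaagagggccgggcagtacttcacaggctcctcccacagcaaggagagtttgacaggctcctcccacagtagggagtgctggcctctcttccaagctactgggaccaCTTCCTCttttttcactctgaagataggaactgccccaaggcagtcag
Cyp4f18, chr8:72009577-72009876, minus strand: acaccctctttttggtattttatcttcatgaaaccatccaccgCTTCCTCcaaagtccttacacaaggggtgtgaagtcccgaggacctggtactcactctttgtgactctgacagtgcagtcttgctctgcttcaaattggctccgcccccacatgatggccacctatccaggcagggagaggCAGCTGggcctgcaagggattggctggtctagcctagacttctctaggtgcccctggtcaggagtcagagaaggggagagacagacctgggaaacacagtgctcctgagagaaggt
Eng, chr2:32646345-32646644, plus strand: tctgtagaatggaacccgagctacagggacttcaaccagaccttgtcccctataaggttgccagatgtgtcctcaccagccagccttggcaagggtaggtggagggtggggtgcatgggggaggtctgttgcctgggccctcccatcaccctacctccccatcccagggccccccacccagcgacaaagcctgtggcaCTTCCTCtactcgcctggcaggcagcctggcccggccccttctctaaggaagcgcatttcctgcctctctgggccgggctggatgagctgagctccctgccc
Vat1l, chr8:114205390-114205689, plus strand: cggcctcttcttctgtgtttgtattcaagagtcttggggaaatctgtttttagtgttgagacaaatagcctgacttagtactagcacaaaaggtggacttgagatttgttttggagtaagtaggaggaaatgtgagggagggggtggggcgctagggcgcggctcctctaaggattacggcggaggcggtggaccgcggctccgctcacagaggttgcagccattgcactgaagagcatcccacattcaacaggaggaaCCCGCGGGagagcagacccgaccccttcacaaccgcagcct

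GAGGAAG, read on the other strand as CTTCCTC, lay in the promoters of Fgd2, Cyp4f18 and Eng, 3 of the 8 searched, and in 13.6% of all 32851 RefSeq promoters. CCCNNGGG lay in that of Vat1l alone (13.7% of all promoters), CAGCTG in that of Cyp4f18 (16.3%) and CAGGTG, another E-box, at both starts of Tmprss3 (20.2%). CTTTGAT, a motif of TCF and LEF factors, was in none of the 8 (3.73% of all promoters). A match describes letters in a window and shows no binding.

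In the β-catenin libraries all 10 genes were lower than in every sorted control, and in the inhibitor libraries all 10 were lower than in every untreated culture. Groups were apart in this way, in this direction, for 29.4% of the 12813 genes tested in the β-catenin comparison and 20.8% of the 12685 tested in the inhibitor comparison. With limma (adjusted p under 0.05, Benjamini-Hochberg), 9 of the 10 were called lower in the β-catenin libraries, where 17.7% of all genes tested were. With LY2090314 10 of 10 were called lower, where 9.60% of all genes tested were. Both shares were fixed by how the genes were picked, and nothing is read from them. Vat1l was the gene not called in the β-catenin comparison. Calls there changed when single libraries were left out, which also made a group smaller. Without sorted control 242, 249 or 251 there were 5, 5 and 4 calls among the 10, and without library 262 there were 7. With no filter there were 6 and with a pseudocount of 0.1 there were 7. Without library 244 or without library 255 there were 10, and without 244 the share of all genes called lower was 21.4%. Calls over all genes changed too. Without sorted control 242, 249 or 251, 750 of 12450, 756 of 12441 and 523 of 12450 genes tested were called lower. Without library 262 or 255 they were 1093 of 12175 and 2406 of 12208. With no filter they were 1772 of 25298, and with a pseudocount of 0.1 they were 2177 of 12813. In the inhibitor comparison 10 of 10 were called under each alternative, also without both libraries numbered 249. With the library number as a block, 2033 genes (16.0%) were called lower there, against 1218 without it.

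**Figure D1:**
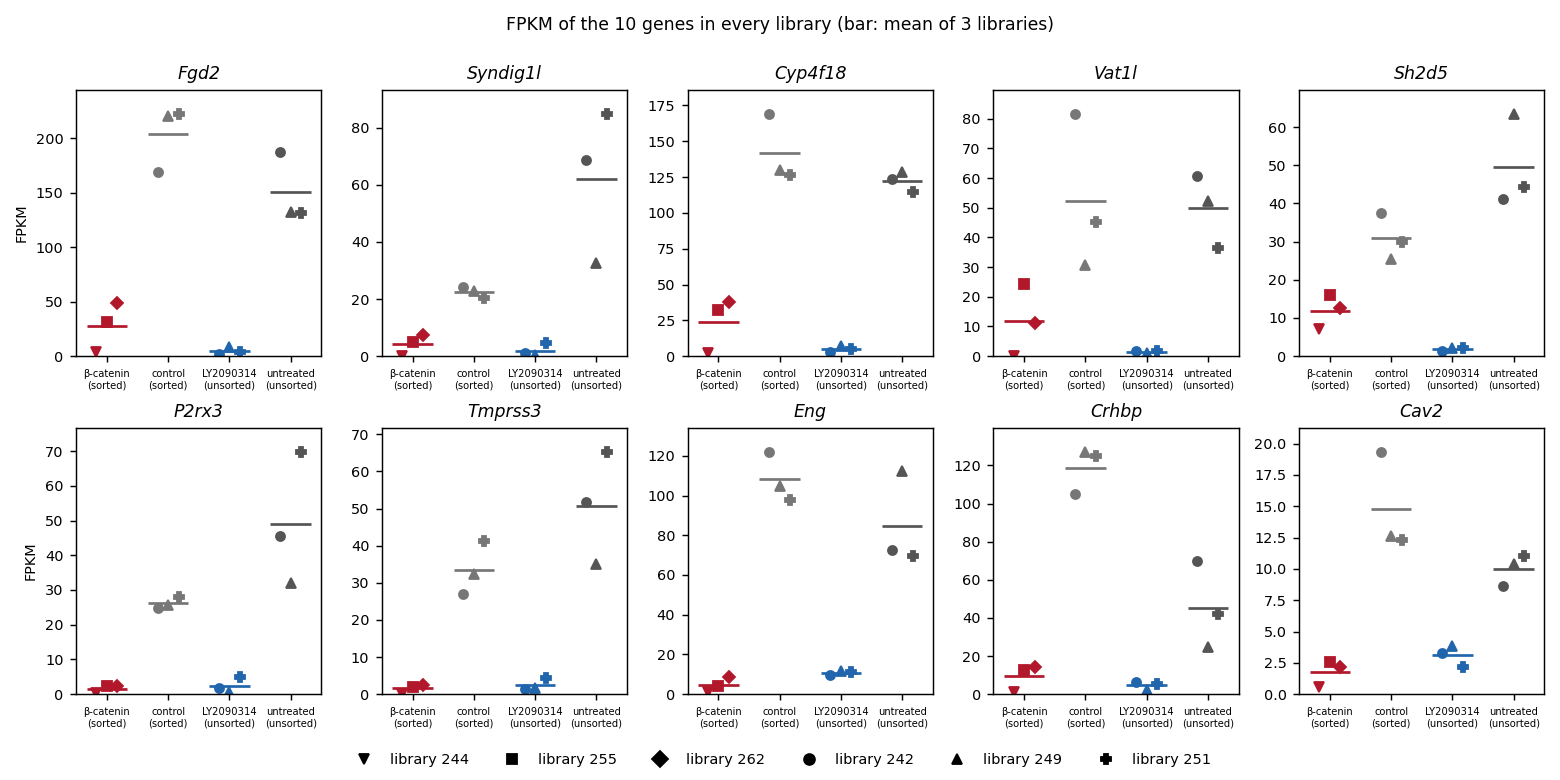
FPKM of each gene (vertical axes, linear from 0) in the β-catenin, sorted control, LY2090314 and untreated libraries. Each point is 1 library, its shape the library number, and the bar is the mean of 3 libraries. All 10 genes sit lower in the β-catenin than in the control libraries and lower in the LY2090314 than in the untreated libraries.

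Eng (endoglin, ENSMUSG00000026814, chromosome 2, 32646595 to 32682669 of GRCm38) is a coreceptor for TGF-β family ligands, known from endothelium and hematopoietic stem cells. It stood at 0.865, 4.10 and 8.62 FPKM in β-catenin libraries 244, 255 and 262, against 122, 105 and 97.7 FPKM in sorted controls 242, 249 and 251. The mean was 4.53 ± 3.89 FPKM in β-catenin libraries against 108 ± 12.4 FPKM in sorted controls (SD, n = 3 each), the third-lowest log2 fold change of all genes tested (-4.59 ± 0.57 SE). Log2 fold changes here are differences of mean log2(FPKM + 1), which makes changes of weakly expressed genes look smaller. With LY2090314 Eng stood at 9.40, 11.8 and 10.97 FPKM in cultures 242, 249 and 251, against 72.3, 112 and 69.3 FPKM without it (-2.84 ± 0.20 SE). Both manipulations were followed by lower Eng, and its inhibitor libraries lay close together. Of the endothelial markers Cdh5, Kdr, Tek, Emcn, Cldn5 and Tie1 stayed below 1 FPKM in every library, whereas Pecam1, which leukocytes share, averaged 94.2 FPKM in β-catenin libraries and 42.6 FPKM in sorted controls. The remaining endothelial markers, Vwf and Esam, were highest in culture 249, at 9.31 and 3.11 FPKM with LY2090314 against 2.49 and 1.33 FPKM without it.

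P2rx3 (ENSMUSG00000027071, chromosome 2, 84998583 to 85037462) encodes an ATP-gated cation channel known from sensory neurons. It stood at 0.319, 2.25 and 2.22 FPKM in the β-catenin libraries, against 24.7, 25.8 and 28.0 FPKM in the sorted controls (log2 fold change -3.50 ± 0.37 SE). No control library came near the β-catenin range. With LY2090314 it stood at 1.74, 0.483 and 4.92 FPKM, against 45.4, 32.0 and 69.6 FPKM in the untreated cultures (-4.05 ± 0.53 SE). Culture 251 was highest and 249 lowest both with and without the inhibitor. Both manipulations thus went with lower P2rx3. Its exons share 51 bases with Ssrp1 on the other strand, an abundant gene (mean 278 FPKM in β-catenin libraries, 347 FPKM in sorted controls). Whether strand was used in counting is not given in the sources used here. Of the neuronal markers, Snap25, Rbfox3, Map2 and Stmn2 stayed below 1 FPKM in every library, and the summed list (mostly Tubb3) was 5.35 to 66.5 FPKM in β-catenin libraries against 5.98 to 11.6 FPKM in sorted controls, and 29.5 to 60.4 FPKM with LY2090314 against 4.26 to 10.7 FPKM without it.

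Cav2 (ENSMUSG00000000058, chromosome 6, 17281185 to 17289115) encodes caveolin 2, which in other tissues joins caveolin 1 in the coat of caveolae. It was the lowest of the 10 in the controls. The β-catenin libraries held 0.580, 2.56 and 2.14 FPKM, against 19.3, 12.6 and 12.3 FPKM in the sorted controls (log2 fold change -2.57 ± 0.35 SE). In the inhibitor libraries it stood at 3.29, 3.84 and 2.16 FPKM, against 8.64, 10.4 and 11.03 FPKM in the untreated ones (-1.44 ± 0.21 SE), the smallest inhibitor difference of the 10. Cav2 was therefore lower after both, without overlap. Cav1, its neighbour 17220 bases away and usual partner, averaged 0 FPKM in β-catenin libraries and in sorted controls, 0 FPKM with LY2090314 and 0.0337 FPKM in untreated cultures.

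Crhbp (ENSMUSG00000021680, chromosome 13, 95431371 to 95444924) encodes the secreted protein that binds corticotropin-releasing hormone and urocortin. Its β-catenin libraries held 1.17, 12.9 and 14.1 FPKM, against 105, 127 and 125 FPKM in the sorted controls (log2 fold change -3.96 ± 0.75 SE). The inhibitor libraries held 6.27, 2.17 and 5.24 FPKM, against 69.7, 24.6 and 42.0 FPKM in untreated cultures (-3.03 ± 0.45 SE). Crhbp was lower after both. Its untreated cultures differed widely, with 242 highest and 249 lowest, and each kept a like share with the inhibitor: 8.99%, 8.82% and 12.5% of its own untreated value in cultures 242, 249 and 251.

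Tmprss3 (ENSMUSG00000024034, chromosome 17, 31179265 to 31198977) encodes a membrane-bound serine protease needed for hearing in humans. It stood at 0.0455, 2.06 and 2.56 FPKM in the β-catenin libraries, against 27.1, 32.3 and 41.3 FPKM in the sorted controls (log2 fold change -3.92 ± 0.48 SE). Library 244 held 6 fragments of it. The inhibitor libraries stood at 1.36, 1.53 and 4.45 FPKM, against 51.8, 35.2 and 65.2 FPKM in untreated cultures (-3.97 ± 0.38 SE). The differences in both comparisons were of like size, both downward.

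Fgd2 (ENSMUSG00000024013, chromosome 17, 29360914 to 29379661) encodes a guanine nucleotide exchange factor for the small GTPase CDC42, known from antigen-presenting cells. It was the highest of the 10 in both control groups. The β-catenin libraries held 3.40, 31.6 and 48.8 FPKM, against 169, 221 and 222 FPKM in the sorted controls (log2 fold change -3.40 ± 0.88 SE). With LY2090314 it stood at 1.77, 8.21 and 4.14 FPKM, against 187, 133 and 131 FPKM without (-4.88 ± 0.42 SE). That was the second-lowest inhibitor log2 fold change of all genes tested, and Fgd2 was lower after both manipulations. The β-catenin libraries spread widely, with 244 far below the other two.

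Sh2d5 (ENSMUSG00000045349, chromosome 4, 138250403 to 138261332) encodes an adaptor with an SH2 domain, known mainly from brain. It stood at 7.01, 15.9 and 12.5 FPKM in β-catenin libraries, against 37.6, 25.5 and 29.9 FPKM in sorted controls (log2 fold change -1.37 ± 0.30 SE), the smallest β-catenin difference of the 10. With LY2090314 it stood at 1.35, 2.11 and 2.11 FPKM, against 41.2, 63.3 and 44.3 FPKM in untreated cultures (-4.13 ± 0.21 SE). It was lower after both, by 2.63-fold in mean FPKM with β-catenin and 26.7-fold with the inhibitor; the difference between these effects was not tested. Sh2d5 shares 74 exonic bases with Kif17 on the same strand, a motor protein gene. Kif17 averaged 0.829 FPKM in β-catenin libraries against 2.27 FPKM in sorted controls and 0.0865 FPKM with LY2090314 against 5.52 FPKM in untreated cultures, called lower in both.

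Cyp4f18 (ENSMUSG00000003484, chromosome 8, 71988482 to 72009626) encodes a cytochrome P450 that oxidises the chemoattractant leukotriene B4 in mouse. Its β-catenin libraries held 2.10, 32.3 and 37.7 FPKM, against 169, 130.3 and 126 FPKM in the sorted controls (log2 fold change -3.16 ± 0.96 SE). The inhibitor libraries held 2.91, 7.05 and 5.22 FPKM, against 124, 128 and 114 FPKM in untreated cultures (-4.41 ± 0.26 SE). Cyp4f18 was lower after both, and its untreated cultures differed little. It shares 181 exonic bases with Zfp961 on the other strand, which averaged 48.3 FPKM in β-catenin libraries and 102 FPKM in sorted controls.

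Vat1l (ENSMUSG00000046844, chromosome 8, 114205612 to 114374071) encodes a relative of VAT1, a membrane protein of the quinone oxidoreductase family. It stood at 0, 24.3 and 11.2 FPKM in β-catenin libraries, against 81.5, 30.6 and 45.2 FPKM in sorted controls (log2 fold change -2.87 ± 1.19 SE). Library 244 held 0 fragments, which allows up to 0.0289 FPKM (3 fragments, counting error only), and control 249 lay just above library 255. The spread was too wide for a call with all libraries. Without library 244 the log2 fold change was -1.49 and it was called lower, as it was without library 255 (-3.82). The inhibitor libraries lay close together at 1.72, 1.17 and 1.68 FPKM, against 60.9, 52.4 and 36.3 FPKM in untreated cultures (-4.31 ± 0.22 SE). Vat1l was therefore clearly apart with the inhibitor and apart by a narrow margin with stabilised β-catenin.

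Syndig1l (ENSMUSG00000071234, chromosome 12, 84677277 to 84698831) encodes a membrane protein related to SynDIG1, which binds AMPA receptors at synapses. It stood at 0.0595, 4.97 and 7.32 FPKM in β-catenin libraries, against 24.3, 22.8 and 20.3 FPKM in sorted controls (log2 fold change -2.64 ± 0.76 SE). With LY2090314 it stood at 0.932, 0.442 and 4.52 FPKM, against 68.5, 32.7 and 84.6 FPKM in untreated cultures (-4.56 ± 0.57 SE). It too was lower after both, and culture 251 was highest with and without the inhibitor.

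The size of the fall differed between genes and between manipulations. As a share of the control mean, the β-catenin mean ran from 4.19% (Eng) to 38.1% (Sh2d5). Without library 244 it ran from 5.88% (Eng) to 45.8% (Sh2d5). As a share of the untreated mean, the inhibitor mean ran from 3.06% (Vat1l) to 30.9% (Cav2). Library 244 was the lowest of the β-catenin libraries for all 10 genes. Its B cell precursor markers were at 1.77% of the control mean, and 8 of the 10 genes were below that share; Sh2d5 (22.6%) and Cav2 (3.93%) were not. In library 255 the markers were at 39.0%, and all but Vat1l (46.3%) and Sh2d5 (51.3%) were below. In library 262 they were at 29.1%, and all but Syndig1l (32.5%) and Sh2d5 (40.3%) were below. Among the 11 markers, 2 were called lower with stabilised β-catenin (Cd79b and Blnk), where 17.7% of all genes tested were, and 9 were not called. The log2 fold changes of those 9 ran from -4.02 (Vpreb1) to -0.27 (Il7r), so lack of a call did not mean a small difference. With LY2090314, 8 were called lower (9.60% of all genes tested), 1 higher (Dntt, where 8.47% of all genes tested were) and 2 were not called. The summed markers kept 35.8%, 35.9% and 41.5% of the untreated value in cultures 242, 249 and 251. All 10 genes kept less than that in culture 251, and 9 of 10 in cultures 242 and 249, where Cav2 kept 38.0% and 37.0%. Single markers differed from their sum. With LY2090314 their log2 fold changes ran from -3.88 (Vpreb1) to 1.93 (Dntt). Vpreb1 and Igll1 (-3.53) fell further by this measure than Eng (-2.84), Crhbp (-3.03) and Cav2 (-1.44). Dntt, at 888 FPKM with LY2090314 against 235 FPKM without it, raised the sum. T cell markers, mostly Lat, summed to 274 to 392 FPKM in the inhibitor libraries against 106 to 128 FPKM in the untreated ones. Of these markers 4 of 10 were called higher (8.47% of all genes tested), 2 were not called and 4 were too low to test. Lat averaged 229 FPKM with LY2090314 against 102 FPKM without it. Cd3g averaged 6.38 FPKM with LY2090314 against 7.78 FPKM without it and was not called. Cd3e, Cd3d and Cd4 were among those too low to test. Erythroid and megakaryocyte markers summed to 30.2, 964 and 52.6 FPKM with LY2090314 in cultures 242, 249 and 251, against 12.8, 94.7 and 13.7 FPKM without it. The stromal list, mostly Vim, which leukocytes share, summed to 514 to 742 FPKM with LY2090314 against 188 to 359.9 FPKM without it, and to 691 to 777 FPKM in β-catenin libraries against 226 to 347 FPKM in sorted controls. T cell and erythroid sums were thus higher with the inhibitor in each culture, as was the stromal sum. Ranges overlapped for monocyte and macrophage markers (38.4 to 3408 FPKM with LY2090314, 51.7 to 2588 FPKM without), for mast cell and basophil markers (92.5 to 804 FPKM with, 97.2 to 912 FPKM without), for NK and innate lymphoid markers (23.2 to 123 FPKM with, 22.5 to 232 FPKM without) and for stem and progenitor markers (42.2 to 259.8 FPKM with, 53.9 to 389 FPKM without). The part of such shifts in the falls was not tested.

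**Figure D2:**
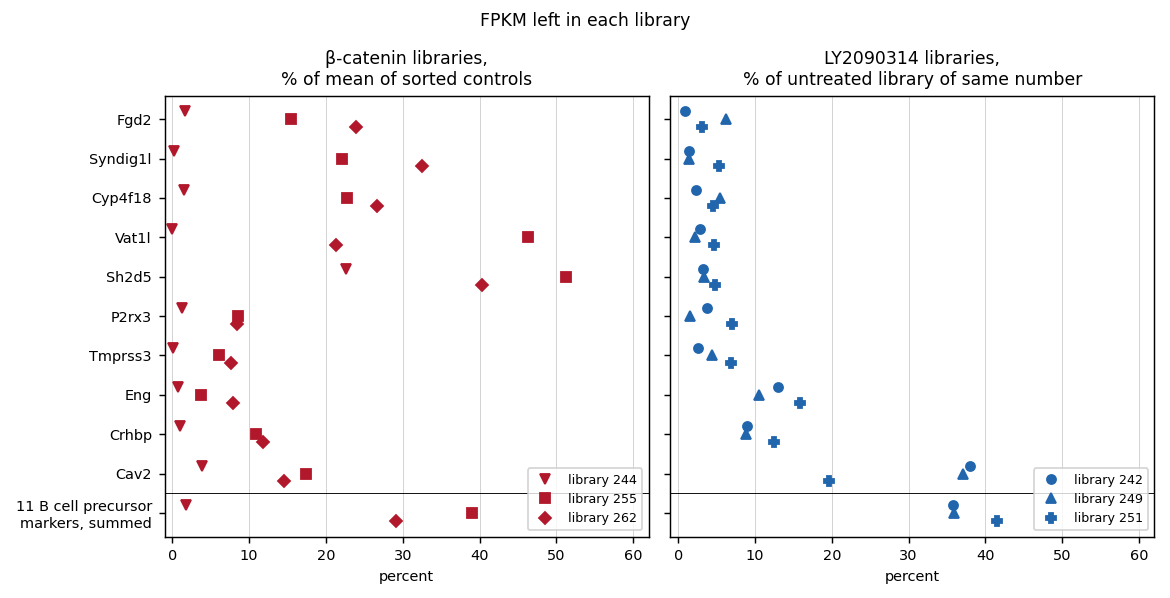
Share of FPKM left in each β-catenin library relative to the mean of the sorted controls (left) and in each LY2090314 library relative to the untreated library of its number (right), linear axes in percent. Below the line stands the sum of 11 B cell precursor markers, at 1.77%, 39.0% and 29.1% on the left and 35.8%, 35.9% and 41.5% on the right. Most genes lie left of that sum in each library. Single markers, which differed from their sum, are not drawn. The sum includes Dntt, which was called higher with LY2090314.

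Across the 12 libraries the 10 genes varied alike. Pearson's r of log2(FPKM + 1) over the 45 pairs ran from 0.71 to 0.99 with a median of 0.88. The libraries share the group differences by which the genes were picked, so these values are a description. Over the 13861 genes that reached 1 FPKM in 3 or more of the 12 libraries, the gene most like Fgd2 was Cyp4f18 (r = 0.989), followed by the protease gene Capn5 (0.985), which was also most like Cyp4f18 (0.991). P2rx3 and Tmprss3 were alike (0.989), and Klhl6, a ubiquitin ligase adaptor of B cells, was near both (0.987 with P2rx3 and 0.989 with Tmprss3). The glycosyltransferase gene B3gnt8 (0.973) and the adhesion receptor gene Adgre5 (0.972) came nearest to Eng. Crhbp was nearest to Scd1, a fatty acid desaturase (0.982), and to Lancl2 (0.979). Cav2 was nearest to the lipoprotein receptor gene Scarb1 (0.977) and the collagen gene Col27a1 (0.975). Syndig1l lay near Rasal1 (0.975), a RAS GTPase activator, and Cox6b2 (0.972). Vat1l lay near the fatty acid elongase gene Elovl6 (0.978) and Cyp4f18 (0.974). Sh2d5 lay near the CREB coactivator gene Crtc1 (0.969) and the receptor gene Treml2 (0.960). Scd1 averaged 18.2 ± 12.7 FPKM in β-catenin libraries against 131 ± 11.7 FPKM in sorted controls, and 12.5 ± 7.38 FPKM with LY2090314 against 46.8 ± 16.5 FPKM in untreated cultures (SD, n = 3 each).

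The sorted controls and the untreated cultures were the contrast that did not pick the genes, although both groups are references of the ones that did. They differ in sorting and in the night in culture, which cannot be told apart here. With limma, 1 of the 10 genes was called higher in the sorted controls (4.01% of 12513 genes tested) and 0 lower (4.29%). At an unadjusted p under 0.05 there were 3 higher and 3 lower, and voom called 1 higher and 0 lower. The shares of all genes tested under these settings are not given here, so nothing is read from these counts. Crhbp was the called gene, at 119 ± 12.2 FPKM in sorted controls and 45.4 ± 22.7 FPKM in untreated cultures (SD, n = 3 each; log2 fold change 1.48 ± 0.33 SE, limma adjusted p = 0.0418). Over its alternatives the adjusted p ran from 0.0222 to 0.154. The call was lost under 6 of 11 alternatives: without sorted control 242 (0.109), 249 (0.131) or 251 (0.154), without untreated culture 251 (0.0980), with no filter (0.106) and with the library number as a block (0.0653). Groups did not overlap for Crhbp and Cav2, higher in sorted controls (18.1% of all genes tested), and for Syndig1l, P2rx3 and Sh2d5, lower (17.8%). The other 5 overlapped.

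Syndig1l averaged 22.5 ± 2.02 FPKM in sorted controls and 61.9 ± 26.6 FPKM in untreated cultures (log2 fold change -1.32 ± 0.32 SE, limma adjusted p = 0.0511). P2rx3 averaged 26.1 ± 1.68 FPKM in sorted controls and 49.0 ± 19.1 FPKM in untreated cultures (-0.81 ± 0.25 SE, limma adjusted p = 0.0893), and Tmprss3 33.6 ± 7.20 FPKM in sorted controls and 50.7 ± 15.01 FPKM in untreated cultures (-0.56 ± 0.24 SE, limma adjusted p = 0.177). For these genes and Crhbp, untreated culture 249, which held the myeloid transcripts, was the lowest of the 3. Without it Syndig1l (limma adjusted p = 0.00417), P2rx3 (0.0201) and Tmprss3 (0.0474) were called lower in the sorted controls, and Crhbp (0.0273) and Eng (0.0260) higher. The other genes were not called with or without it. The share of all genes called without untreated culture 249 is not given here, so nothing is read from the number of these calls.

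**Figure D3:**
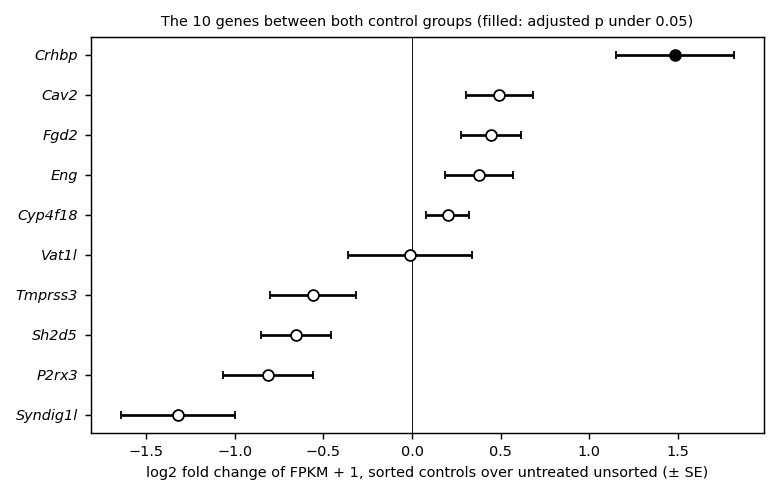
Log2 fold change of FPKM + 1 between sorted controls and untreated unsorted cultures for each gene, with its limma standard error, n = 3 libraries each; a filled point is a call. Crhbp lies highest at 1.48 and Syndig1l lowest at -1.32, with Vat1l at -0.01.

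Relatives of the 10 genes moved in both directions. Of 90 relatives in 10 lists, 36 stayed below 1 FPKM in every library, and 40 were tested in each of the main comparisons. In the β-catenin comparison 14 relatives were called higher, 8 lower and 18 not, where 18.6% of all genes tested were called higher and 17.7% lower. Their median log2 fold change was 0.17, against -0.02 for all genes tested. In the inhibitor comparison 1 was called higher, 6 lower and 33 not, where 8.47% of all genes tested were called higher and 9.60% lower; the median was -0.003 against -0.03. Between sorted controls and untreated cultures 1 of 38 tested was called higher (4.01% of all genes tested) and 1 lower (4.29%).

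Among the relatives of Eng, 16 TGF-β and BMP receptors, ligands, SMAD proteins and targets were tested. With stabilised β-catenin 4 rose and 3 fell, and with LY2090314 1 rose and 2 fell. Id3, a target of BMP signalling that blocks E proteins, fell in both: it averaged 22.4 ± 11.8 FPKM in β-catenin libraries against 129.7 ± 35.2 FPKM in sorted controls, and 19.5 ± 11.99 FPKM with LY2090314 against 132 ± 31.2 FPKM in untreated cultures (SD, n = 3 each, as for all means that follow). Tgfb1, a ligand, fell in both too (257 ± 50.2 FPKM in β-catenin libraries against 472 ± 25.3 FPKM in sorted controls, and 171 ± 10.9 FPKM with LY2090314 against 402 ± 19.8 FPKM in untreated cultures). Smad3, a transducer of TGF-β, rose in both (92.9 ± 9.22 FPKM in β-catenin libraries against 41.4 ± 2.60 FPKM in sorted controls, and 69.3 ± 15.4 FPKM with LY2090314 against 23.6 ± 2.75 FPKM in untreated cultures). It was higher in sorted controls than in untreated cultures (log2 fold change 0.79, limma adjusted p = 0.0143). Tgfbr1, Tgfbr2 and Smad1 rose with stabilised β-catenin (log2 fold changes 0.79, 0.79 and 0.87) and were not called with the inhibitor, and Acvr1 fell (-0.79). Acvrl1 and Bmpr1a, receptors that work with endoglin or bind BMPs, were too low to test.

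The other relatives of Cav2 include Ehd2, an ATPase at the neck of caveolae. Ehd2 averaged 0.635 ± 0.269 FPKM in β-catenin libraries against 21.03 ± 10.7 FPKM in sorted controls, and 0.879 ± 0.565 FPKM with LY2090314 against 7.57 ± 3.45 FPKM in untreated cultures, and fell in both. Pacsin2 was not called in either, and 5 of the 8 caveolar relatives stayed below 1 FPKM in every library. Of the P2X channels P2rx1, P2rx4 and P2rx7 rose with stabilised β-catenin (log2 fold changes 1.65, 1.09 and 2.48), opposite to P2rx3, and none was called with the inhibitor. P2rx7 averaged 39.5 ± 23.9 FPKM in β-catenin libraries against 5.39 ± 0.319 FPKM in sorted controls. The 6 genes of the corticotropin-releasing hormone system other than Crhbp stayed below 1 FPKM in every library.

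Of the FGD family, Fgd6 fell (log2 fold change -1.82) and Fgd3 rose (0.83) with stabilised β-catenin, while Cdc42, the GTPase on which Fgd2 acts, was not called. None of the 3 was called with the inhibitor. Cyp4f16 fell with LY2090314 (16.97 ± 2.31 FPKM with LY2090314 against 35.0 ± 7.01 FPKM in untreated cultures) and was not called with stabilised β-catenin. The leukotriene B4 genes Alox5ap, which fell (-1.22), and Ltb4r1, the receptor, which rose (2.81), were called with stabilised β-catenin and not with the inhibitor; Lta4h was called in neither. Tmem91, from the same family as Syndig1l, fell in both (log2 fold changes -1.67 and -1.52), and Prrt1 rose with stabilised β-catenin (4.05). Vat1 and Cryzl1 rose there (0.87 each) and Cryz fell (-1.08), with no call for the inhibitor. Among SH2 adaptors, Sh2d1b1 (3.34) and Sh2d2a (3.24), known from NK and T cells, rose with stabilised β-catenin, where the summed NK and innate lymphoid markers were at least 777 FPKM in each library, and Sh2d3c fell with the inhibitor (-1.27). Of the membrane serine proteases related to Tmprss3, 6 of 9 stayed below 1 FPKM in every library, and St14 was not called in either comparison.

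**Figure D4:**
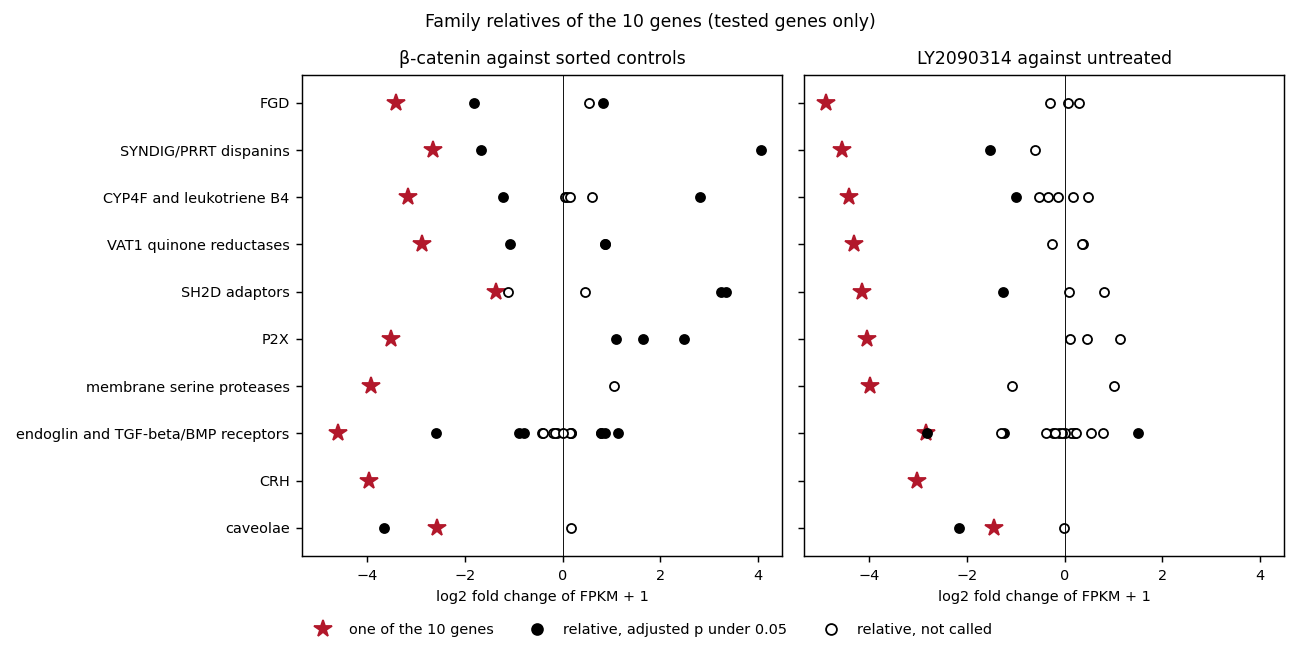
Log2 fold change of FPKM + 1 for the 10 genes (stars) and their tested relatives (circles, filled where called) by family, in the β-catenin comparison (left) and the LY2090314 comparison (right). Stars run from -4.59 to -1.37 on the left and from -4.88 to -1.44 on the right, and relatives lie on both sides of 0.

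Of the 20 nearest protein coding neighbours, 13 were tested in the β-catenin comparison. There 7 were called lower (17.7% of all genes tested) and 1 higher (18.6%). In the inhibitor comparison 14 were tested, with 7 called lower (9.60% of all genes tested) and 7 not called. The medians were -0.52 and -0.67, against -0.02 and -0.03 for all genes tested. Zfp961, Kif17, Ssrp1 and Fpgs overlap exons of Cyp4f18, Sh2d5, P2rx3 and Eng, so reads there could be assigned to either gene. Of the others, Pim1, a kinase gene 111092 bases from Fgd2, fell in both (137 ± 28.5 FPKM in β-catenin libraries against 265 ± 8.84 FPKM in sorted controls, and 46.9 ± 7.12 FPKM with LY2090314 against 227 ± 15.7 FPKM in untreated cultures). Ubash3a, a lymphocyte phosphatase gene 8896 bases from Tmprss3, fell in both as well (13.4 ± 7.23 FPKM in β-catenin libraries against 44.7 ± 1.47 FPKM in sorted controls, and 27.8 ± 5.84 FPKM with LY2090314 against 54.9 ± 10.1 FPKM in untreated cultures). Fpgs, which adds glutamates to folates and shares 61 exonic bases with Eng, fell in both (log2 fold changes -1.40 and -0.81). Mtch1 beside Fgd2, Nudt7 beside Vat1l and Prg3 beside P2rx3 were called in neither. Tes beside Cav2 rose with stabilised β-catenin (1.08). Npc2 beside Syndig1l and Aggf1 beside Crhbp fell there (-0.52 and -0.31), and Olfr372 beside Cyp4f18 and Hp1bp3 beside Sh2d5 fell with the inhibitor (-1.59 and -0.62). Ssrp1 fell with stabilised β-catenin (-0.32) and Zfp961 with the inhibitor (-0.72). Vrtn, Clec3a, Tff1, Ak1, S100z and Cav1 were too low to test. Between sorted controls and untreated cultures 3 of 14 tested were called lower (Olfr372, Hp1bp3 and Kif17), where 4.29% of all genes tested were.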

How the data were processed

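Gene expression was measured in 12 libraries of B cell precursors, 3 per group by their titles. The deposited table holds FPKM. The submitters' processing notes name HISAT2, HTSeq, Cufflinks and the build GRCm38 (mm10); the part each tool played, and its version, is not given in the sources used here. No per-sample column was left out (0 columns). Whole fragments behind the FPKM were recovered for 25186 genes (relative tolerance 1e-08), with totals of 31943162 to 49809635 per library. The members' implied lengths were 951 to 2802 bases, shorter than GENCODE M21 exon unions (1800 to 5462), so levels between genes depend on that choice. The members rested on 0 to 2672 fragments in β-catenin, 576 to 11732 in sorted control, 22 to 878 in inhibitor and 537 to 9502 in untreated libraries.

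Each comparison was fitted with limma 3.58.1 (R 4.3.3; lmFit, eBayes with trend) on log2(FPKM + 1) of its 6 libraries, 2-sided, over genes that reached 1 FPKM in 3 or more libraries, with Benjamini-Hochberg adjusted p under 0.05 as a call. The procedure was tested on simulated data. Deviations from group means of same-numbered inhibitor and untreated libraries correlated (r = 0.609, 0.770 and 0.360 for 242, 249 and 251), each above the limit of 0.1, so these numbers were taken to pair libraries, although inhibitor library 251 correlated slightly better with untreated library 242 (0.383). The main inhibitor fit did not use this pairing. Its SEs and calls thus include differences between cultures, and the block by library number was an alternative. The members and lists were chosen with earlier results of these data known. Named genes were the members, relatives by level or call, nearest neighbours and the 2 genes most alike by Pearson's r. One marker of the B cell precursor list is not reported here and was left out of its sums. Promoters are from RefSeq (GRCm38.p6). Alternatives were a pseudocount of 0.1, no filter, median centring, the replicate block, leaving out each library, limma's voom on the fragments (library size: total fragments) and leaving out both libraries numbered 249; the last 2 were added after the data were seen. Figures used Python 3.11.15 with matplotlib 3.10.9.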

Additional observations from a re-analysis of the deposited data

How the results depend on the processing

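Under each alternative the 10 genes kept their sign in the β-catenin comparison (log2 fold changes -5.80 to -1.07 over 100 values) and in the inhibitor comparison (-5.55 to -1.27 over 120 values). In the β-catenin comparison 21 of the 100 values lost their call and 2 gained one; in the inhibitor comparison 0 of 120 did. Between the control groups 6 of 110 lost and 5 gained a call, and 5 uncalled values, near 0, changed sign. Leaving out single libraries gave 1535 to 5002 called genes in the β-catenin comparison (4656 with all), 1023 to 2200 in the inhibitor comparison (2292 with all) and 23 to 1085 between the control groups (1039 with all). Members called ranged from 4 to 10 lower with stabilised β-catenin, and from 0 to 3 lower and 0 to 2 higher in sorted controls. With the replicate block, 3816 genes were called in the inhibitor comparison and 354 between the control groups, where 0 members were called higher. There same-numbered libraries shared little (r of their deviations from group means 0.143, 0.123 and 0.0005 for 242, 249 and 251), and 251 was under the limit of 0.1, so the numbers were not taken to pair them; sorted control 251 also correlated better with untreated 242 (0.018) than with its own number, as inhibitor library 251 did. No filter gave 352 genes and 0 members higher there, and a pseudocount of 0.1 gave 1 member lower (Syndig1l). The block ended no call of the 10 genes in the inhibitor comparison. Median centring shifted the median of all genes in the β-catenin comparison by -0.11 and the share of calls that were higher to 37.0%, against 51.3%; all 10 genes stayed lower. The causes of these moves were not tested. Depth limits few values: the members' lowest were 0 fragments of Vat1l, 6 of Tmprss3 and 7 of Syndig1l, all in library 244.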
